A study of Mus musculus with 8 samples.

Results

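Myogenin peaks were compared with p300 peaks in C2C12 cells that had differentiated for 24 h without bexarotene. The control lists held 5912 myogenin intervals and 22051 p300 intervals, out of 43759 intervals in the 4 peak lists of the series. Intervals that overlapped by at least 1 bp were joined into 26010 regions. Of these, 3963 held myogenin alone, 20113 held p300 alone and 1934 held both factors and are called co-occupied.

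C2C12 is an established mouse myoblast line, labelled with strain C3H, that forms multinucleated myotubes when serum is lowered. The series asked how bexarotene, an agonist of the retinoid X receptor, affects myogenin and p300 occupancy in early differentiation, with 8 samples of which 4 have a peak list. The libraries compared here are 1 myogenin ChIP-seq library (antibody sc-12732X) and 1 p300 ChIP-seq library (antibody sc-584), both from cells moved at 80% confluence to medium with 2% horse serum and no bexarotene. With 1 library a factor the design has no replicate and allows no test. The range given in parentheses after a share is its 95% Wilson interval. It covers only the error of counting peaks within these libraries, and the spread over the 19 autosomes is given beside the overlap, promoter, E-box and AP-1 shares. The libraries were made separately, so an overlap of peaks does not show that myogenin and p300 sat on the same DNA molecule or in the same cell. A region of a single factor is one where no peak of the other factor was called, which does not show that the other factor was absent.

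Myogenin is a basic helix-loop-helix transcription factor of the myogenic regulatory factor family. It pairs with E-proteins on E-boxes, the hexamer CANNTG, and turns on genes of the contractile apparatus, the neuromuscular synapse and cell fusion as myoblasts leave the cell cycle. The acetyltransferase p300 does not read a DNA sequence of its own and is brought to enhancers and promoters by many DNA-binding factors, among them the myogenic factors and AP-1, the Jun and Fos dimers that bind TGACTCA.

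The first sequences show how E-boxes lie at the centres of some co-occupied regions, most of them at muscle genes. They were picked after their motifs were seen and all hold an E-box, whereas 54.8% of distal and 37.1% of promoter co-occupied myogenin intervals had CAGCTG or CACCTG within 50 bp of the centre. Each line holds 100 bp of the mm9 genome around the centre of the myogenin interval, 5′ to 3′ on the plus strand, with E-boxes CAGCTG or CACCTG (read CAGGTG on the other strand) and the AP-1 consensus TGACTCA (read TGAGTCA on the other strand) in capitals. Distances are from the nearest transcription start site (TSS), negative upstream.
Myod1, co-occupied, -34.8 kb, chr7:53596985-53597084: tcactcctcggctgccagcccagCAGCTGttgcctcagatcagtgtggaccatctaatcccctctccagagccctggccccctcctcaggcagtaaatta
Myod1, co-occupied, -26.1 kb, chr7:53605667-53605766: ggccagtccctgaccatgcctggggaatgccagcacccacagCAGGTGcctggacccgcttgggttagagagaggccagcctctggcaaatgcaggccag
Myod1, co-occupied, -23.1 kb, chr7:53608645-53608744: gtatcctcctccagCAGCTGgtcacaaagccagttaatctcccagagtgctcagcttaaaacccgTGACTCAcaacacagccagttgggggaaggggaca
Chrng promoter, co-occupied, -159 bp, chr1:89102177-89102276: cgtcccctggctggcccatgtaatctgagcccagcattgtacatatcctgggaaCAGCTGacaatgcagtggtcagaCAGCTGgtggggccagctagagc
Chrna1 promoter, co-occupied, -126 bp, chr2:73418471-73418570: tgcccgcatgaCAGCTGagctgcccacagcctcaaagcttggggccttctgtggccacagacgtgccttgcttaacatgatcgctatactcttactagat
Gm7325, co-occupied, -14.2 kb, chr17:45753175-45753274: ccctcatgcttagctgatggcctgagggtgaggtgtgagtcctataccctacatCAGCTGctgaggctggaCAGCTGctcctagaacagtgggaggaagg
Plxna1 intron 3, co-occupied, chr6:89298008-89298107: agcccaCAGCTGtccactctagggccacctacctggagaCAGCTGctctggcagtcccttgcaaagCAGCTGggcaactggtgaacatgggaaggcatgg

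The next sequences are from the centres of regions that held myogenin alone. They show a promoter, a repeated CACCTG unit and a repeated CAGCTG unit.
Gm7325 promoter, myogenin alone, -73 bp, chr17:45739074-45739173: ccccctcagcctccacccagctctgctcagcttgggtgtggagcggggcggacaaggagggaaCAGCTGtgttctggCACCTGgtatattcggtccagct
Rps6ka2 intron 1, myogenin alone, chr17:7391641-7391740: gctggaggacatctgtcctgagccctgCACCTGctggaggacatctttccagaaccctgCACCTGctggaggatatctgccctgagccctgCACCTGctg
Dnahc2 intron 44, myogenin alone, chr11:69273526-69273625: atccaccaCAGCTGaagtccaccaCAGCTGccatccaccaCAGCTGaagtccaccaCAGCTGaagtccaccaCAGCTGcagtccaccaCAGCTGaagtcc

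The last set, around the centres of p300 intervals, shows regions that held p300 alone. An intronic region has a pair of AP-1 consensus sequences, and another joins AP-1 with CAGCTG.
Smad3 intron 1, p300 alone, first site, chr9:63573240-63573339: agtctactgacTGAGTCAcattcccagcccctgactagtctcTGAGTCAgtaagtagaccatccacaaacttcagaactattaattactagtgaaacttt
Smad3 intron 1, p300 alone, second site, chr9:63588260-63588359: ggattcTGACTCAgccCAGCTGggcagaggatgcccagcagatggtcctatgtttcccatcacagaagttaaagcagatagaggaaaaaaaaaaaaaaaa

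Most myogenin peaks lay outside the p300 list, although that list was the longer one. The co-occupied class held 1949 myogenin intervals, which was 33.0% of that list (95% interval 31.8 to 34.2), and 1938 p300 intervals, which was 8.79% of that list (8.42 to 9.17). With a reciprocal overlap of 50% required, the myogenin share was 18.3%. Over the autosomes the myogenin share ran from 25.9% to 42.3% with a median of 33.7%, and the p300 share from 5.78% to 11.97%. Intervals of the co-occupied class mostly met in pairs, with 1916 of the 1934 regions holding 1 interval of each factor.

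Where the intervals met, their centres mostly lay close together, although many pairs failed a reciprocal overlap of 50%, as the lower share above shows. The pairs were chosen by overlap, which by itself bounds the distance between centres through the interval lengths. Whether centres lay closer than this bound alone would give was not tested. Across the 1953 overlapping pairs the median shared stretch was 172 bp (quartiles 150 and 233 bp), and the median distance between centres was 62 bp (28 and 116 bp). The centres lay within 100 bp of each other in 1368 pairs, or 70.0% (68.0 to 72.0). The myogenin interval lay wholly inside the p300 interval in 762 pairs (39.0%), and the reverse held in 236 pairs (12.1%). Only 93 pairs (4.76%) shared less than 50 bp. The longest shared stretch, 880 bp at chr4:59327981-59328860, lay inside the annotated gene Susd1, 123084 bp downstream of the nearest TSS. The next were 718 bp at chr12:74577257-74577974, with the TSS of D830013O20Rik nearest, and 614 bp at chr17:10217969-10218582, with that of Qk nearest, which encodes an RNA-binding protein.

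Co-occupied intervals were longer than those of a single factor. The median myogenin interval was 219 bp when co-occupied and 172 bp, the smallest length of that list, when alone. The median p300 interval was 322.5 bp when co-occupied and 219 bp when alone. The share of co-occupied myogenin intervals was 25.3% (23.8 to 26.8) at the smallest length, 42.3% (40.4 to 44.2) above it and 51.3% (48.0 to 54.5) at 300 bp or longer. For p300 the same steps gave 4.58% (4.13 to 5.07) at its smallest length of 159 bp, 10.99% (10.5 to 11.5) above it and 15.2% (14.3 to 16.0) at 300 bp or longer. A longer interval can meet another by its length alone, and the lists hold no tag counts, so the part of peak strength in this trend was not tested.

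Regions of a single factor were often far from the other factor. The nearest p300 interval to a myogenin-alone peak lay at a median of 14.6 kb, with 586 (14.8%, 13.7 to 15.9) within 1 kb. The nearest myogenin interval to a p300-alone peak lay at a median of 91.7 kb, and 63.1% lay beyond 50 kb. The lists differ in length, with 5912 myogenin and 22051 p300 intervals, and the part of this in the distances was not tested.

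Myogenin-alone peaks lay at promoters more often than either other class. Within 1 kb of the TSS of a protein-coding transcript lay 1277 of 3963 myogenin-alone peaks, or 32.2% (30.8 to 33.7), against 151 of 1949 co-occupied myogenin intervals, or 7.75% (6.64 to 9.02). Among p300-alone peaks the share was 11.3% (10.9 to 11.8). Within 500 bp of a TSS the myogenin-alone share was 21.0%, and it stood 15.5 percentage points above that of co-occupied peaks. The share within 1 kb was higher for myogenin alone than for co-occupied peaks on 19 of 19 autosomes, by 12.3 to 39.4 percentage points. Seen from the myogenin list, 10.6% (9.08 to 12.3) of promoter peaks were co-occupied and 40.1% (38.7 to 41.5) of peaks farther out, which are called distal here.

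**Figure D1:**
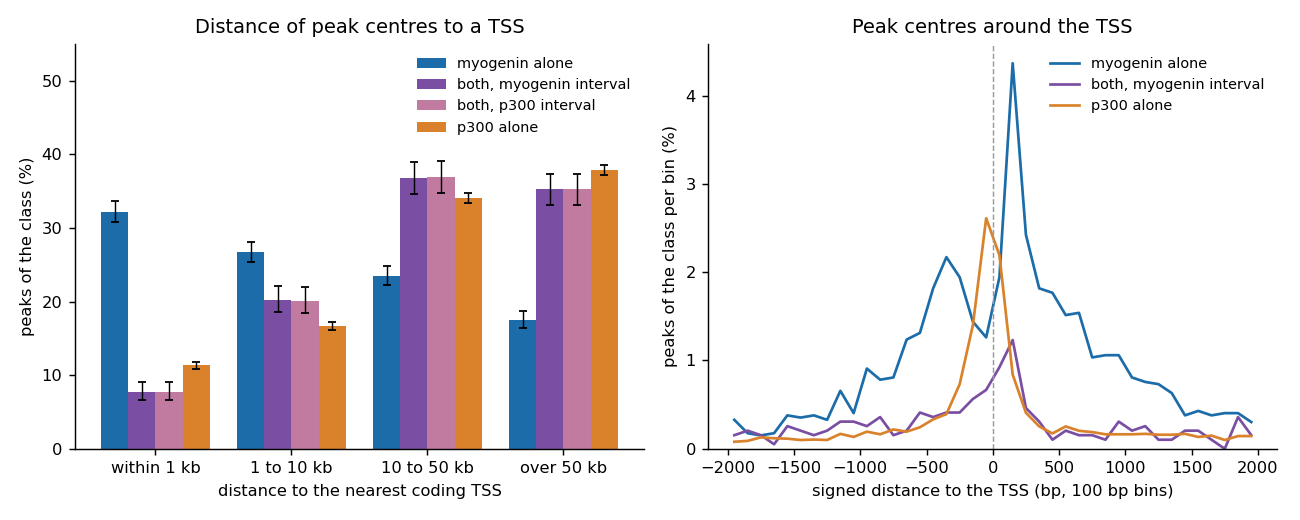
Left, the percentage of peaks of each class by the distance of the peak centre to the nearest coding TSS, with bars starting at 0 and 95% Wilson intervals; both in the legend means co-occupied, measured on the interval named. Right, the percentage of each class in 100 bp bins around the TSS, where myogenin alone stands highest 100 to 200 bp downstream and p300 alone just upstream of the TSS.

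Co-occupied and p300-alone peaks had a similar layout relative to genes, with differences near the TSS. Promoters held 7.75% (6.64 to 9.02) of co-occupied myogenin intervals and 11.3% (10.9 to 11.8) of p300-alone peaks. At 1 to 10 kb lay 20.3% (18.5 to 22.1) and 16.7% (16.2 to 17.2) of them. Peak centres lay over 50 kb from any coding TSS in 35.2% (33.2 to 37.4) of co-occupied myogenin intervals and 37.9% (37.2 to 38.6) of p300-alone peaks, against 17.6% (16.4 to 18.8) for myogenin alone. The median distance to a TSS was 27.5 kb for co-occupied peaks, 31.0 kb for p300 alone and 5.15 kb for myogenin alone. Introns held 40.2%, 38.1% and 32.6% of the classes in that order, and intergenic sequence 48.8%, 48.1% and 31.0%. Coding exons held at most 1.46% of any class.

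At promoters the classes also sat in different places, as the profile of peak centres around the TSS shows. Promoter peaks of p300 alone had a median position of -26 bp (quartiles -174 and 87 bp), and 42.4% (40.4 to 44.5) of them lay within 100 bp of the TSS. Promoter peaks of myogenin alone had a median of 111 bp downstream (-349 and 397 bp) and only 10.1% (8.57 to 11.9) lay within 100 bp. The bin from 100 to 200 bp downstream held 173 myogenin-alone peaks and the bin from 400 to 300 bp upstream 86, while the 100 bp just upstream of the TSS held 50. Measured on the myogenin interval, the 151 co-occupied promoter peaks had a median of 21 bp and 20.5% (14.9 to 27.7) lay within 100 bp. On the p300 interval there were 150, with a median of -37.5 bp and 34.7% (27.5 to 42.6) within 100 bp.

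E-boxes were more frequent in myogenin peaks than in p300 alone, and the GC-core form CAGCTG was the more frequent form in distal peaks of every class. In distal peaks, CAGCTG lay within 50 bp of the centre in 43.1% (41.2 to 45.0) of myogenin-alone peaks and in 44.7% (42.4 to 47.0) of co-occupied peaks measured on the myogenin interval. The share was 40.2% (38.0 to 42.5) on the p300 interval of the same regions and 14.3% (13.8 to 14.8) in p300 alone. Flanking windows of the same length, centred 2 kb away and free of peaks, gave 4.29% to 5.02%, so each class stood above its surroundings, by 8.58-fold, 10.4-fold, 8.62-fold and 3.32-fold in that order. Among all hexamers present in at least 5% of distal peaks, CAGCTG had the largest ratio to flanking windows in myogenin-alone and in co-occupied peaks. With promoter peaks included and CAGCTG and CACCTG counted together, the E-box share was higher for the p300 intervals of co-occupied regions than for p300 alone on 19 of 19 autosomes, by 19.8 to 43.9 percentage points.

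**Figure D2:**
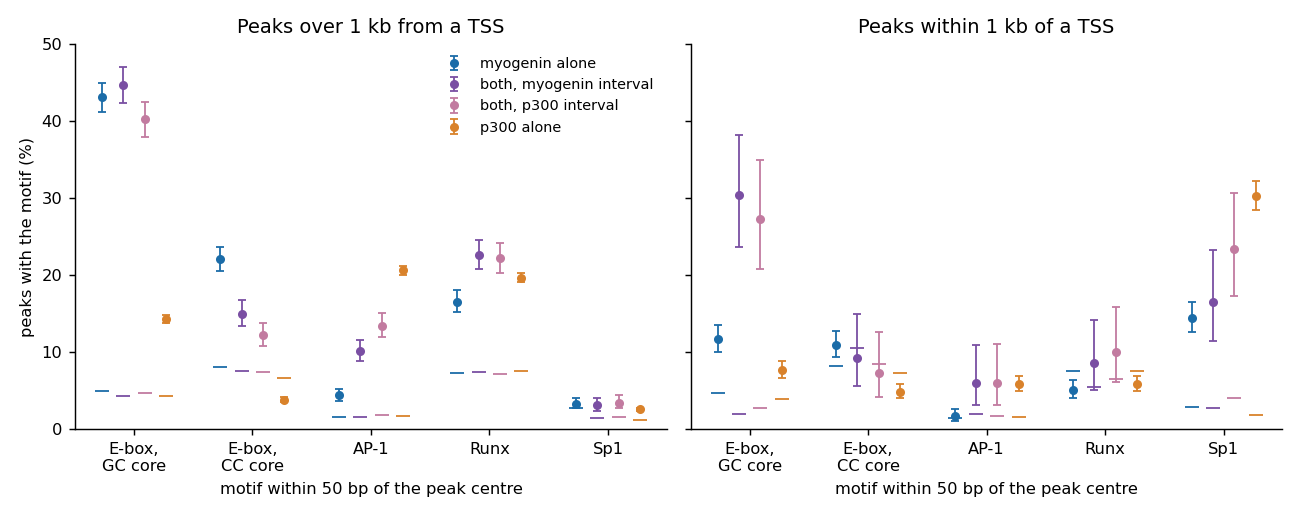
Percentage of peaks with a motif within 50 bp of the centre, with 95% Wilson intervals, for peaks over 1 kb from a TSS (left) and within 1 kb (right). Short horizontal marks show flanking windows, the GC-core E-box is CAGCTG and the CC-core E-box is CACCTG. Distal p300-alone peaks stand lowest for both E-boxes and highest for AP-1.

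The CC-core E-box CACCTG followed a different order. It lay in 22.0% (20.5 to 23.6) of distal myogenin-alone peaks, in 15.02% (13.4 to 16.7) of co-occupied myogenin intervals and in 3.84% (3.57 to 4.13) of p300-alone peaks. Flanking windows gave 8.08%, 7.61% and 6.63%, so p300-alone peaks held CACCTG less often than the sequence around them. CAGCTG made up 68.8% (66.8 to 70.7) of the E-boxes counted in distal myogenin-alone peaks 77.4% (75.01 to 79.6) in co-occupied ones and 80.03% (78.7 to 81.3) in p300-alone ones. Where a distal peak had an E-box, 34.1% (31.8 to 36.5) of myogenin-alone peaks had more than 1, against 25.4% (22.8 to 28.2) of co-occupied myogenin intervals and 12.2% (11.1 to 13.4) of p300-alone peaks.

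Of the other E-box cores, CATCTG and CATATG did little to separate the classes. CATCTG lay in 12.7% of distal myogenin-alone, 14.1% of co-occupied and 12.1% of p300-alone peaks, with flanking shares of 7.35%, 8.16% and 7.66%. CATATG lay in 1.49%, 1.78% and 1.78%, below flanking shares of 2.06%, 3.06% and 2.88%. Any CANNTG was found in 74.6%, 77.1% and 49.9%, with 41.3% to 42.6% in flanking windows. GC content over 200 bp at distal centres had a median of 50.5% in myogenin alone, 50% on co-occupied myogenin intervals and 45.5% in p300 alone, and its part in these shares was not tested.

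The bases next to the core also differed from the surroundings. Of the CAGCTG sites in distal myogenin-alone peaks, 82.6% (80.6 to 84.5) were followed by a pair of pyrimidines on 1 or both strands, against 49.4% of the CAGCTG sites in flanking windows. Co-occupied myogenin intervals gave 80.3% (77.7 to 82.7) and p300-alone peaks 61.2% (59.3 to 63.0), with 51.02% and 49.4% in their flanking windows. For CACCTG, read in its own direction, a pyrimidine pair followed in 74.4% (70.9 to 77.6) of sites in myogenin alone, 66.1% (60.4 to 71.3) in co-occupied and 41.7% (38.1 to 45.5) in p300 alone, against 29.7% to 34.4% in flanking windows. The Plxna1 intron 3 sequence printed above has this form at CAGCTGtc and CAGCTGct, and at CAGCTGgg when read on the minus strand.

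In distal peaks AP-1 ran the other way, lowest in myogenin alone and highest in p300 alone. TGACTCA lay within 50 bp of the centre in 4.39% (3.68 to 5.24) of distal myogenin-alone peaks and 20.6% (20.1 to 21.2) of distal p300-alone peaks. Co-occupied peaks stood between them with 10.1% (8.81 to 11.6) on the myogenin interval and 13.4% (11.9 to 15.1) on the p300 interval. Flanking windows gave 1.56% to 1.83%, so the ratio ran from 2.82-fold in myogenin alone to 12.4-fold in p300 alone. With promoter peaks included, the AP-1 share was higher for co-occupied myogenin intervals than for myogenin-alone peaks on 19 of 19 autosomes, by 1.03 to 10.9 percentage points. It was higher for p300 alone than for the p300 intervals of co-occupied regions on 18 of 19, with differences from -0.71 to 13.5 points.

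**Figure D3:**
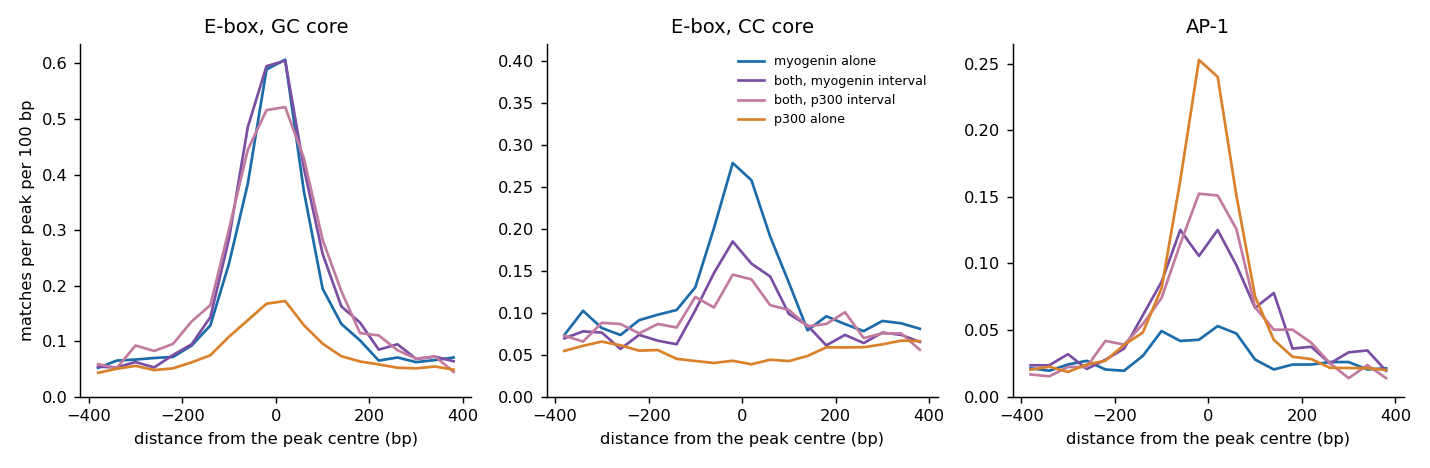
Matches per peak per 100 bp against the distance from the peak centre in bp, in distal peaks in 40 bp bins, for CAGCTG (GC core), CACCTG (CC core) and TGACTCA (AP-1). The lines of the myogenin classes peak at the centre for both E-boxes, p300 alone dips at the centre for CACCTG, and p300 alone stands highest for AP-1.

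E-boxes and AP-1 sites met most often in co-occupied regions. Within 100 bp of the centre, 14.6% (13.1 to 16.3) of distal co-occupied myogenin intervals held both an E-box (CAGCTG or CACCTG) and TGACTCA, against 6.52% (5.64 to 7.51) of myogenin-alone and 8.20% (7.80 to 8.61) of p300-alone peaks. In distal co-occupied myogenin intervals AP-1 lay in 18.8% (16.9 to 20.9) of those with an E-box and in 18.3% (14.8 to 22.3) of those without. At promoters AP-1 lay in 14 of 77 co-occupied myogenin intervals with an E-box and 1 of 74 without, and on the p300 interval in 10 of 67 and 6 of 83. In distal myogenin-alone peaks AP-1 lay in 9.11% (7.91 to 10.5) of those with an E-box and 6.01% (4.53 to 7.92) of those without. In distal p300-alone peaks AP-1 lay in 27.8% (26.6 to 29.0) of those with an E-box and 32.4% (31.6 to 33.2) of those without. Neither motif was found in 18.2% of co-occupied, 26.8% of myogenin-alone and 47.7% of p300-alone distal peaks.

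Runx and Tead sequences were shared by the classes. TGTGGT, the core bound by Runx factors, lay in 22.6% (20.8 to 24.6) of distal co-occupied myogenin intervals, 19.6% (19.1 to 20.2) of p300-alone and 16.6% (15.2 to 18) of myogenin-alone peaks, with 7.29% to 7.61% in flanking windows. GGAATG, the Tead core, lay in 11.8%, 11.2% and 9.61%, with 5.16% to 5.63% in flanking windows. The MEF2 consensus was rare everywhere, at 0.558% of myogenin-alone, 0.445% of co-occupied and 0.286% of p300-alone distal peaks.

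Promoter peaks held an E-box less often than distal ones in every class, with 20.8% against 56.3% for myogenin alone, 37.1% against 54.8% for co-occupied myogenin intervals and 12.2% against 17.4% for p300 alone. CAGCTG lay in 30.5% (23.7 to 38.2) of co-occupied promoter peaks, below its distal share of 44.7% (42.4 to 47.0), and in 11.7% (10.0 to 13.5) of myogenin-alone and 7.72% (6.70 to 8.89) of p300-alone promoter peaks. GGGCGG, the core bound by Sp1, lay in 30.3% (28.5 to 32.2) of p300-alone, 16.6% (11.5 to 23.3) of co-occupied and 14.5% (12.7 to 16.5) of myogenin-alone promoter peaks. CCGGAAG, an Ets sequence, lay in 6.23% (5.31 to 7.30) of p300-alone promoter peaks, 14.7-fold its flanking share, and in 1.33% of myogenin-alone ones. Median GC content over 200 bp at promoter centres was 64.5% in p300 alone, 58.5% on co-occupied myogenin intervals and 58% in myogenin alone. The part of GC content and of position near the TSS in these promoter shares was not tested.

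Myogenin-alone promoter peaks differed from distal myogenin-alone peaks in other measures too. Neither an E-box nor TGACTCA lay within 100 bp of the centre in 65.0% (62.3 to 67.6) of them, against 26.8% (25.2 to 28.5) of distal ones. The smallest interval length was held by 69.3% (66.7 to 71.8) against 57.1% (55.2 to 59.0). Myogenin peaks were also unevenly spread over the autosomes, from 1.41 per Mb on chromosome 7 to 4.97 on chromosome 15, with 4.39 on chromosome 10 and 3.87 on chromosome 11, while p300 ran from 5.27 to 13.6 per Mb. Chromosome X held fewer of either factor, with 0.312 myogenin and 1.56 p300 peaks per Mb. With intervals above the smallest length, 24.1% of myogenin-alone peaks were at promoters, and the share stood 19.7 percentage points above that of co-occupied peaks, where all intervals gave 24.5. Without chromosomes 10, 11 and 15, chosen after seeing these densities, the share was 30.6% and the difference 24.05 points.

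The lists from cells given 50 nM bexarotene, made from other libraries, are a second readout of the same factors but not a replicate. Treatment and library change together, so an effect of bexarotene and variation between libraries cannot be told apart in these shares. A myogenin peak was found again in the bexarotene myogenin list in 41.5% (39.98 to 43.1) of myogenin-alone and 69.1% (67.0 to 71.1) of co-occupied cases. The order held at promoters, with 15.9% (14 to 18) and 42.4% (34.8 to 50.4), in distal sequence, with 53.7% (51.8 to 55.6) and 71.4% (69.2 to 73.4), and among intervals above the smallest length, with 65.2% (62.7 to 67.5) and 84.6% (82.4 to 86.6). For p300 the share found again was 29.7% (29.1 to 30.4) when alone and 63.2% (61.0 to 65.3) when co-occupied. It also depended on interval length. At the smallest length it was 8.47% (7.85 to 9.13) when alone and 25.7% (21.4 to 30.6) when co-occupied. Above that length it was 41.6% (40.8 to 42.5) and 71.4% (69.1 to 73.5).

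Most single-factor peaks did not meet the other factor in the bexarotene lists. Of the myogenin-alone peaks 223 (5.63%) overlapped p300 in the bexarotene list, and of the p300-alone peaks 1028 (5.11%) overlapped myogenin there. Of the co-occupied myogenin intervals 901 (46.2%, 44.0 to 48.4) overlapped an interval in each of the bexarotene lists and 324 (16.6%) overlapped neither. The bexarotene p300 list is much shorter than the control p300 list, with 9154 intervals. The part of its length in the shares measured against it was not tested.

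Genes were assigned by the nearest coding TSS within 50 kb of the peak centre. A co-occupied site fell to 1052 of 22238 protein-coding genes (4.73%), a myogenin-alone site to 2397 (10.8%) and a p300-alone site to 5939 (26.7%), while 14968 (67.3%) had no site. The count of genes with a co-occupied site was 497 with the TSS within 10 kb, 521 for intervals above the smallest length and 633 with a reciprocal overlap of 50%. Of the 3041 genes with any myogenin site (13.7%), 1052 (34.6%) had a co-occupied site. A further 936 (30.8% of them, 4.21% of all genes) had myogenin and p300 only at separate sites, and 1053 (34.6% of them, 4.74% of all genes) had no p300 site. In total 1988 of these genes (65.4%) had a p300 site by this rule, which leaves out p300 peaks that lie nearer to the TSS of another gene. Any p300 site fell to 6217 genes (28%).

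**Figure D4:**
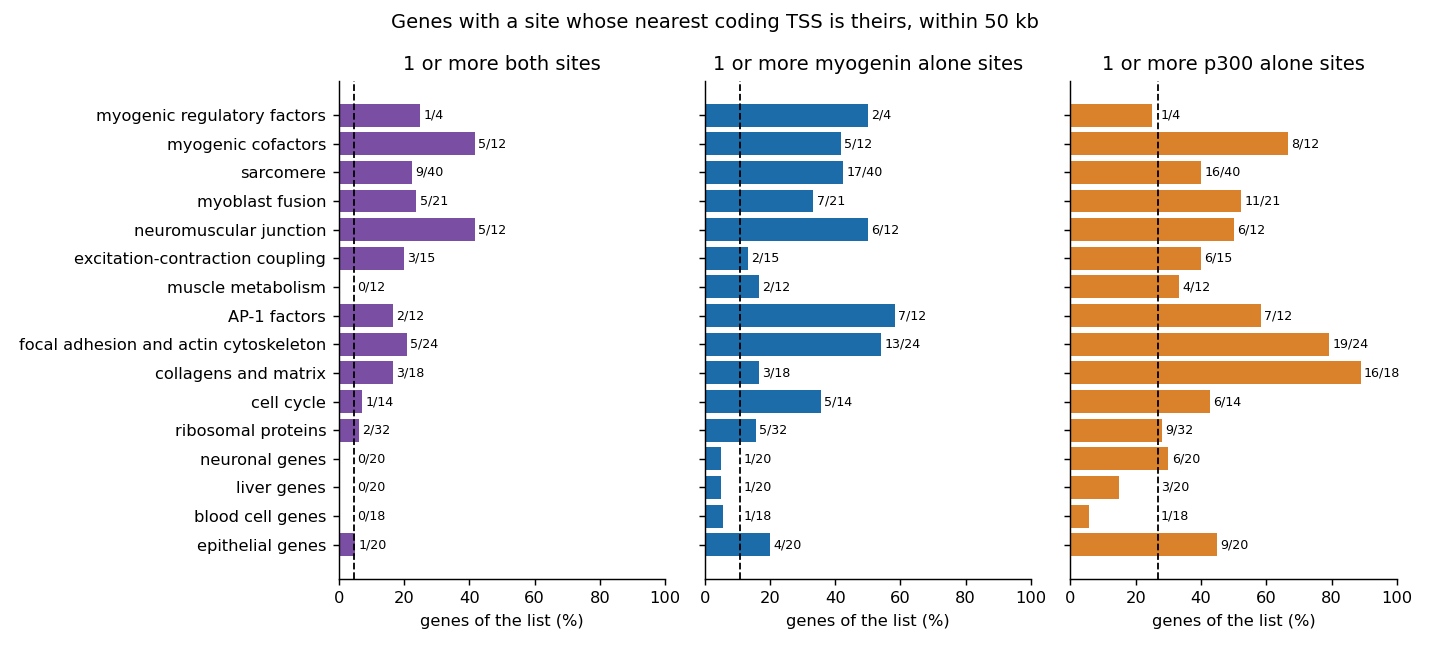
Percentage of the genes of each list with at least 1 co-occupied, myogenin-alone or p300-alone site, with the count of genes beside each bar. Dashed lines mark the share over all 22238 genes, which is 4.73%, 10.8% and 26.7%.

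Among the 4 myogenic regulatory factors, only Myod1, the determination factor, had co-occupied sites, where 4.73% of all genes did. A myogenin-alone site fell to 2 of the 4 and a p300-alone site to 1, against 10.8% and 26.7% of all genes. In a list of 4 genes these counts rest on 1 or 2 members. The 3 co-occupied sites of Myod1 at -34.8, -26.1 and -23.1 kb lie in intergenic sequence at chr7:53596897-53597173, chr7:53605557-53605877 and chr7:53608584-53608805. Each has an E-box within 50 bp of its centre, CAGCTG in the outer sites and CACCTG in the middle one, and the site at -23.1 kb also has TGACTCA, as printed above. All of them were found again in the bexarotene myogenin list. Myod1 also had a myogenin-alone peak at -5.17 kb and p300-alone peaks at -38.6 kb and 2.72 kb.

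Myog itself had 1 myogenin-alone peak at -6.54 kb (chr1:136179929-136180155), with no CAGCTG or CACCTG anywhere in its 227 bp, and no p300 peak was assigned to it. Myf5 and Myf6, neighbours on chromosome 10, had no site of any class. Of the 12 genes in the list of their partners and cofactors, 5 had a co-occupied site, 5 a myogenin-alone site and 8 a p300-alone site, against 4.73%, 10.8% and 26.7% of all genes. Tcf12, an E-protein that dimerizes with myogenic factors, had 3 co-occupied sites in its introns, and Mef2a and Mef2d had 1 each. The Mef2a site at chr7:74529805-74530821 holds 7 E-boxes and lies at -12.6 kb.

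Of 12 genes of the neuromuscular junction, 5 had a co-occupied site, 6 a myogenin-alone site and 6 a p300-alone site, where 4.73%, 10.8% and 26.7% of all genes did. Chrna1, Chrnb1 and Chrng encode subunits of the muscle acetylcholine receptor, and all 3 had a co-occupied peak just upstream of the TSS, at -126, -143 and -159 bp. Of the other subunit genes in the list, Chrnd had 4 p300-alone sites and no myogenin site, and Chrne had no site of any class. The Chrng peak (chr1:89102074-89102380) has a pair of CAGCTG sites within 50 bp of its centre and the Chrna1 peak (chr2:73418289-73418753) has 1. At Chrnb1 (chr11:69609452-69609723) the intervals shared only 5 bp, no E-box lay within 50 bp of the centre, and no interval of the bexarotene p300 list overlapped it. Utrn, which encodes utrophin, had a co-occupied site in intron 1, and Musk, a receptor kinase gene of the synapse, had 1 co-occupied and 5 p300-alone sites.

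Myoblast fusion genes held all classes, with a co-occupied site at 5 of 21, myogenin alone at 7 and p300 alone at 11, against 4.73%, 10.8% and 26.7% of all genes. Gm7325, the older symbol of the fusion factor Myomixer, had myogenin alone at its promoter (chr17:45738969-45739278, -73 bp) with 1 CAGCTG and 1 CACCTG within 50 bp of the centre. No p300 peak was called there, but the paper reports p300 reads at this promoter. By qChIP it also reports that p300 enrichment there rose after 24 h of differentiation without bexarotene. A co-occupied site lay farther upstream at -14.2 kb (chr17:45752992-45753457), with 4 E-boxes in the interval, and was found again in each of the bexarotene lists. Cdh15, which encodes M-cadherin, had co-occupied sites at 1.56 and 2.99 kb and myogenin alone at 3.86 kb, all in intron 1. Ncam1, a cell adhesion gene, had 2 co-occupied and 8 p300-alone sites.

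Sarcomere genes held myogenin with and without p300. Of 40 genes, 17 had a myogenin-alone site, 16 a p300-alone site and 9 a co-occupied one, against 10.8%, 26.7% and 4.73% of all genes. Ttn, which encodes titin, had myogenin alone at -302 bp and a co-occupied site at -38.4 kb inside intron 21 of Ccdc141. Mybpc1, Myom2 and Tmod1 had 1 co-occupied site each, at -26.6, 15.3 and 46.4 kb. Mybph, a myosin-binding protein gene, had only myogenin alone by these peak calls, in its intron 3 (chr1:136092654-136092945). By qChIP, however, the paper reports both p300 and myogenin at a putative Mybph enhancer in differentiating cells, with a further rise under bexarotene. Adora1, the adjacent adenosine receptor gene, had only a 604 bp myogenin-alone interval at -9.91 kb (chr1:136141616-136142219) with 7 E-boxes.

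Excitation-contraction coupling genes held a co-occupied site at 3 of the 15 found in the annotation, a myogenin-alone site at 2 and a p300-alone site at 6. These are 20%, 13.3% and 40% of the list, against 4.73%, 10.8% and 26.7% of all genes, so myogenin alone was near the share of all genes. The genes with a co-occupied site were Cacng1, a calcium channel subunit gene, Jph2, a junctophilin gene, and Pvalb, whose site in intron 1 held 7 E-boxes and 2 AP-1 sequences. Of 12 muscle metabolism genes none had a co-occupied site, 2 had myogenin alone (16.7%) and 4 had p300 alone (33.3%), which in a list of this size is near the shares of all genes.

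Most genes of adhesion and matrix had a p300-alone site, and many focal adhesion genes also had a myogenin site. A p300-alone site fell to 16 of 18 collagen and matrix genes and 19 of 24 focal adhesion and actin genes, against 26.7% of all genes. A co-occupied site fell to 3 and 5 of them (16.7% and 20.8%, against 4.73% of all genes), and a myogenin-alone site to 3 and 13 (16.7% and 54.2%, against 10.8%). Any myogenin site fell to 15 of the 24 focal adhesion and actin genes (62.5%), against 13.7% of all genes. Col4a2, a basement membrane collagen gene, had 13 p300-alone sites and 1 co-occupied site, while Myh9, the non-muscle myosin gene, had 11 p300-alone, 6 myogenin-alone and 2 co-occupied sites. Of the 12 genes for AP-1 factors and their relatives, 7 had myogenin alone, 7 had p300 alone and 2, Junb and Fosl1, had a co-occupied site. These are 58.3%, 58.3% and 16.7% of the list, against 10.8%, 26.7% and 4.73% of all genes. The co-occupied count rests on 2 genes with 1 such site each.

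Lists from other tissues and housekeeping lists held few co-occupied sites, and in lists of this size the counts are near those that the 4.73% of all genes would give. None of 20 neuronal, 20 liver or 18 blood cell genes had one, and 1 of 20 epithelial genes did, Cldn4. Ribosomal protein genes had one in 2 of 32 cases and cell cycle genes in 1 of 14, Ccnd3, the cyclin D3 gene, with 2 co-occupied and 4 myogenin-alone sites. Of the 14 cell cycle genes, 5 had a myogenin-alone site (35.7%, against 10.8% of all genes) and 6 a p300-alone site (42.9%, against 26.7%). A p300-alone site fell to 9 of 20 epithelial genes (45%) and 6 of 20 neuronal genes (30%), against 26.7% of all genes. Such a site fell to 9 of 32 ribosomal protein genes (28.1%), 3 of 20 liver genes (15%) and 1 of 18 blood cell genes (5.56%). Long genes and isolated genes collect more sites under a nearest-TSS rule, which the counts do not correct for.

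Some genes collected many sites of 1 class. Of the 22238 genes 168 (0.755%) had 2 or more co-occupied sites, led by Mtss1, an actin and membrane-binding protein gene, and Plxna1, a semaphorin receptor gene, with 6 each. The Plxna1 sites all lie in introns of the gene, 5 of them in intron 3, and 1 of these has 3 CAGCTG sites within 50 bp of its centre. Srsf3, a splicing factor gene, followed with 5 sites and no site of another class. All 5 also lie within 50 kb of the TSS of Cdkn1a, the cell cycle inhibitor p21, at 32.8 to 39.9 kb, and 4 of them within 50 kb of the TSS of Stk38, a kinase gene. Cnksr3, a scaffold protein gene, had 5 as well, and 4831426I19Rik, Mrpl33, Pip4k2a and Ccdc88c had 4 each. Sept9 and 2900064A13Rik had 3 each, as did other genes, since ties here and in the next paragraphs were broken by total interval length.

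**Figure D5:**
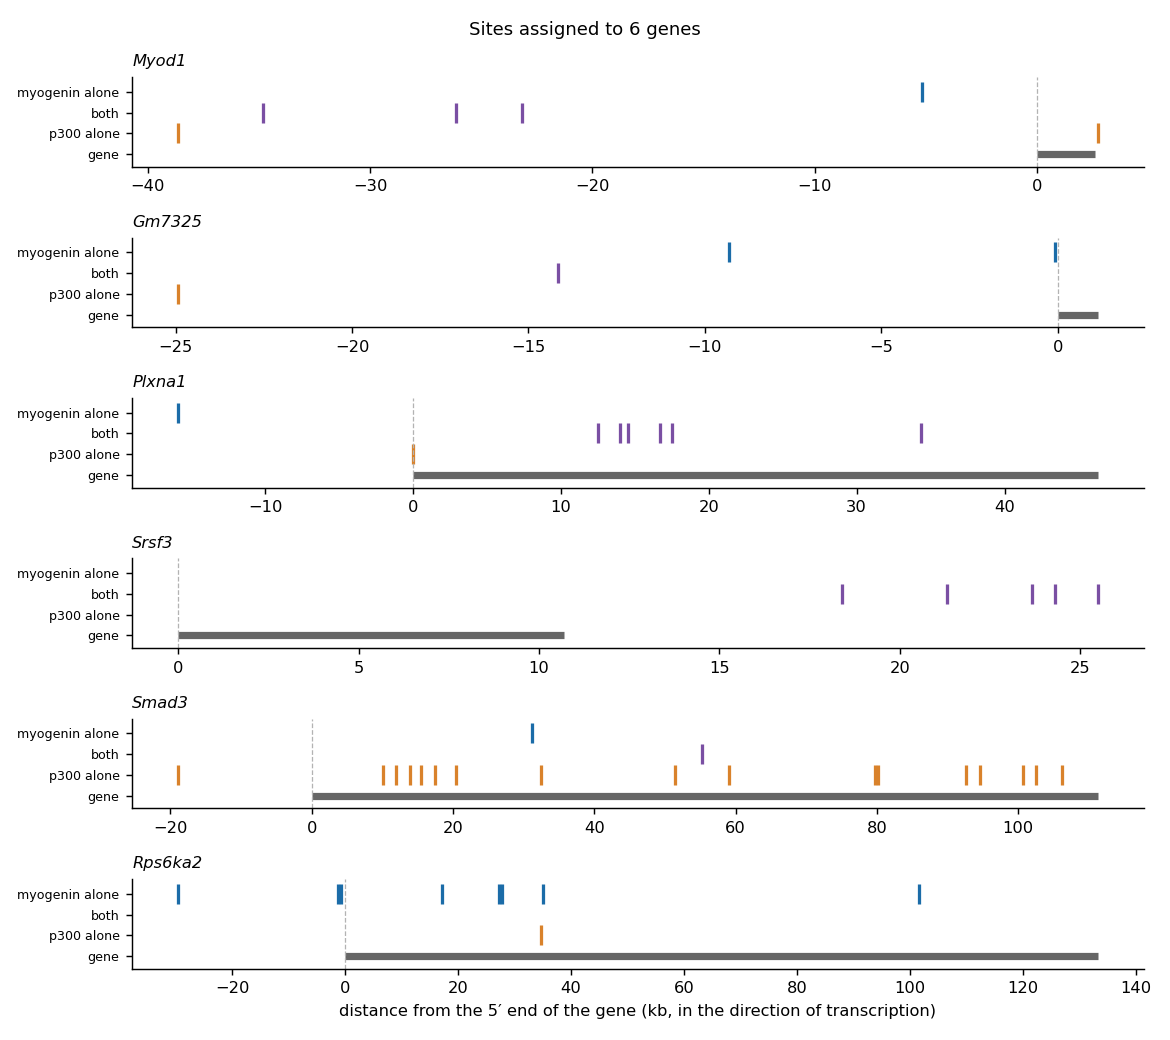
Peak centres assigned to 6 genes by class, in kb from the 5′ end of the annotated gene in the direction of transcription, with the gene as a grey bar. Myod1, Plxna1 and Srsf3 hold groups of co-occupied sites, Smad3 holds 17 p300-alone sites and Rps6ka2 holds 8 myogenin-alone sites.

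The largest groups of p300 alone were at Pde4d, a cyclic AMP phosphodiesterase gene, with 18 sites, and Smad3, which encodes an effector of TGF-β signalling, with 17. Zbtb20 had 16, Tns3, a tensin gene, had 15 and Dlc1 had 14, a count it shared with Plcb4. At Pde4d, Tns3 and Dlc1 no myogenin peak was assigned. Smad3 also had 1 co-occupied and 1 myogenin-alone site, and a p300-alone site in its intron 1 at chr9:63573190-63573389 has a pair of AP-1 sequences, as printed above.

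The largest groups of myogenin alone were at Rps6ka2, a ribosomal S6 kinase gene, with 8 sites, and Kdm6b, which encodes a histone H3 lysine demethylase, with 7. Mknk2, Plec and Bin1 had 6 each, a count that other genes such as Myh9 also reached. The Rps6ka2 site at chr17:7391605-7391776 has 3 CACCTG sites in a repeated unit, as printed above, and was not found again under bexarotene. The site at chr11:69273375-69273777, assigned to Kdm6b at -46.4 kb but lying in intron 44 of Dnahc2, has 17 E-boxes in 403 bp, of which 6 lie in the repeat printed above, and was found again.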

How the data were processed

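The authors aligned 50 bp single-end reads to mm9, with BWA-MEM for myogenin and Bowtie for p300, removed duplicates with Picard, and called peaks for each library with HOMER findPeaks (factor style, region option, FDR 0.0001). The deposited lists hold chromosome, start and end only. Depth, tag counts and scores are therefore unknown here, and because aligner and sequencer differ between the factors, list lengths are not amounts of binding. Starts were read as counted from 0 and are printed counted from 1.

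Peak centres were set against 46013 TSS records of 22238 protein-coding genes in GENCODE vM1, where the design named RefSeq. Sequence came from mm9. Motifs were searched on the plus and minus strands up to 50 bp from the centre, or 100 bp where stated, and in peak-free windows 2 kb away. The overlap rules, merging of regions, E-box search, Wilson interval and nearest TSS were tested on simulated data, and the other steps were not. Software was pysam 0.24.0, scipy 1.17.1, pandas 2.3.3 and numpy 2.4.6 on Python 3.11.15.

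Members and lists were chosen with earlier results of these data known. Genes named are, in each list, up to 4 with most co-occupied sites, then the 10, 5 and 5 genes with most co-occupied, p300-alone and myogenin-alone sites, the 3 longest shared stretches, and the myogenic regulatory factors with Mybph, Adora1 and Gm7325. Dnahc2, Ccdc141, Cdkn1a and Stk38 were named because sites lie in or near them, and Musk and Plcb4 because they tie with named genes. Chrnd and Chrne were named as the other acetylcholine receptor subunit genes of their list. Printed sequences were picked from these after their motifs were seen. Some items that these rules select are not reported here. Mrln, Spi1 and Ighm were not found in the annotation. Alternatives changed the overlap rule, interval length, chromosomes, TSS distance and catalog, motif window and consensus, and gene assignment.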

Additional observations from a re-analysis of the deposited data

How the results depend on the processing

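Leaving out chromosome 8 kept the 6 main values within their intervals (the gene count within 1.5 times), as did autosomes alone for the 5 shares. The main values that are differences kept their sign under each alternative run for them. The co-occupied share of myogenin peaks ran from 18.3% to 35.4% and the gene count from 497 to 1201. With a reciprocal overlap of 50% the co-occupied share of myogenin peaks was 18.3%, the promoter share of myogenin alone minus co-occupied 22.0 percentage points, the E-box share of co-occupied (p300 intervals) minus p300 alone 43.2, the AP-1 share of p300 alone minus myogenin alone 14.1, the share of myogenin peaks found again under bexarotene of co-occupied minus alone 34.5, and the genes with a co-occupied site 633. The main values were 33.0%, 24.5, 31.2, 15.4, 27.6 and 1052. With centres within 100 bp the co-occupied share was 23.1%, the E-box difference 39.8 and the found-again difference 30.6. With intervals above the smallest length the values were 35.4% for the co-occupied share, 19.7 for promoters, 34.8 for E-boxes, 19.6 for found again and 521 genes. Without chromosomes 10, 11 and 15, chosen after seeing their myogenin density, the co-occupied share was 34.9%. The promoter difference was 15.5 at 500 bp from a TSS and 29.8 at 2.5 kb. In windows of 100 bp to each side the E-box difference was 40.9 and the AP-1 difference 21.8. The E-box difference was 25.7 for CAGCTG alone and 22.5 for any CANNTG. The AP-1 difference was 16.2 in distal peaks, and 497 genes had a co-occupied site within 10 kb. The cause of these moves was not tested. With 1 library a factor, neither culture nor antibody variation could be measured. No paired analysis was possible because each factor has 1 library and the result comes from no test.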
